A study of Saccharomyces cerevisiae with 10 samples.

Results

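The genes described here serve iron uptake and the sparing of iron in *Saccharomyces cerevisiae*. Of 5449 yeast genes measured on the array, 34 were taken by their gene symbols, and each was represented by 1 probe set. RNA was measured on Affymetrix Yeast Genome 2.0 arrays in haploid cells taken through an osmotic stress and recovery growth regime at 30 °C in YPD, a rich glucose medium. Sample A consisted of cells in normal exponential growth. Sample B was taken 1 h after KCl had been added to 1 M, during stress adaptation. Sample C consisted of adapted cells growing in 1 M KCl. Sample D was taken 1 h after these cells had been returned to YPD without KCl, and Sample E after a further 2 to 3 generations of recovery. Each sample was represented by 2 arrays from separately grown culture batches, and the replicate number pairs arrays across samples. The 10 arrays shared 1 genetic background. The labels call this background BQS1350, whereas the study's methods describe a MATα derivative of BY4742 that carries ura3, lys2, leu2 and his3 alleles and a Myc-tagged Gcn5 with a KanMX6 marker. The deposited value of a gene on an array is a log2 expression level, so a difference of 1 is a doubling.

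Yeast takes up iron by several routes. Mannoproteins of the cell wall (FIT genes) hold iron chelates near the cell, ARN-family transporters import iron bound to siderophores, and ferric reductases (FRE genes) release iron for the high-affinity pair of the multicopper oxidase Fet3 and the permease Ftr1, which needs copper delivered by Atx1 and Ccc2. The transcription factors Aft1 and Aft2 switch these genes on when the iron-sulfur cluster signal from mitochondria is low. In the same state Tis11, also called Cth2, binds AU-rich elements and promotes decay of mRNAs that encode iron-using proteins, which saves iron, and Hmx1 breaks down heme.

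The arrays were as follows. The markers of α cells that were looked up (MF(ALPHA)1, MF(ALPHA)2, STE3 and SAG1) read 10.35 or more on every array, and those of a cells (MFA1, MFA2, STE2, BAR1 and AGA2) 7.45 or less. URA3, LYS2 and LEU2 did not exceed 5.99 on any array. HIS3 read 10.21 to 11.58. The described strain carries alleles of all of these last genes, and the study's methods do not say how much of each gene they remove. Probe sets for another species on the same array (fission yeast) gave a background level, whose 95th percentile was 5.11 to 5.68 per array. All 34 genes but FRE5 exceeded it on all 10 arrays. FRE5, a member of the ferric reductase family, read 3.69 to 5.43 and exceeded it on none, so no fold change is given for it in the text. It is still included in the figures and in the counts and medians of the 34 genes. The median over all genes differed between arrays, from 9.60 to 10.19, with the highest values on Sample B replicate 2 (10.19) and Sample E replicate 2 (10.08). Array-wide shifts of this kind enter every difference below, so counts of iron genes that lay above or below are read against the same share of all genes. Replicates differed over all genes by a root mean square of 1.04 in Sample B and of 0.32 to 0.48 elsewhere.

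**Figure D1:**
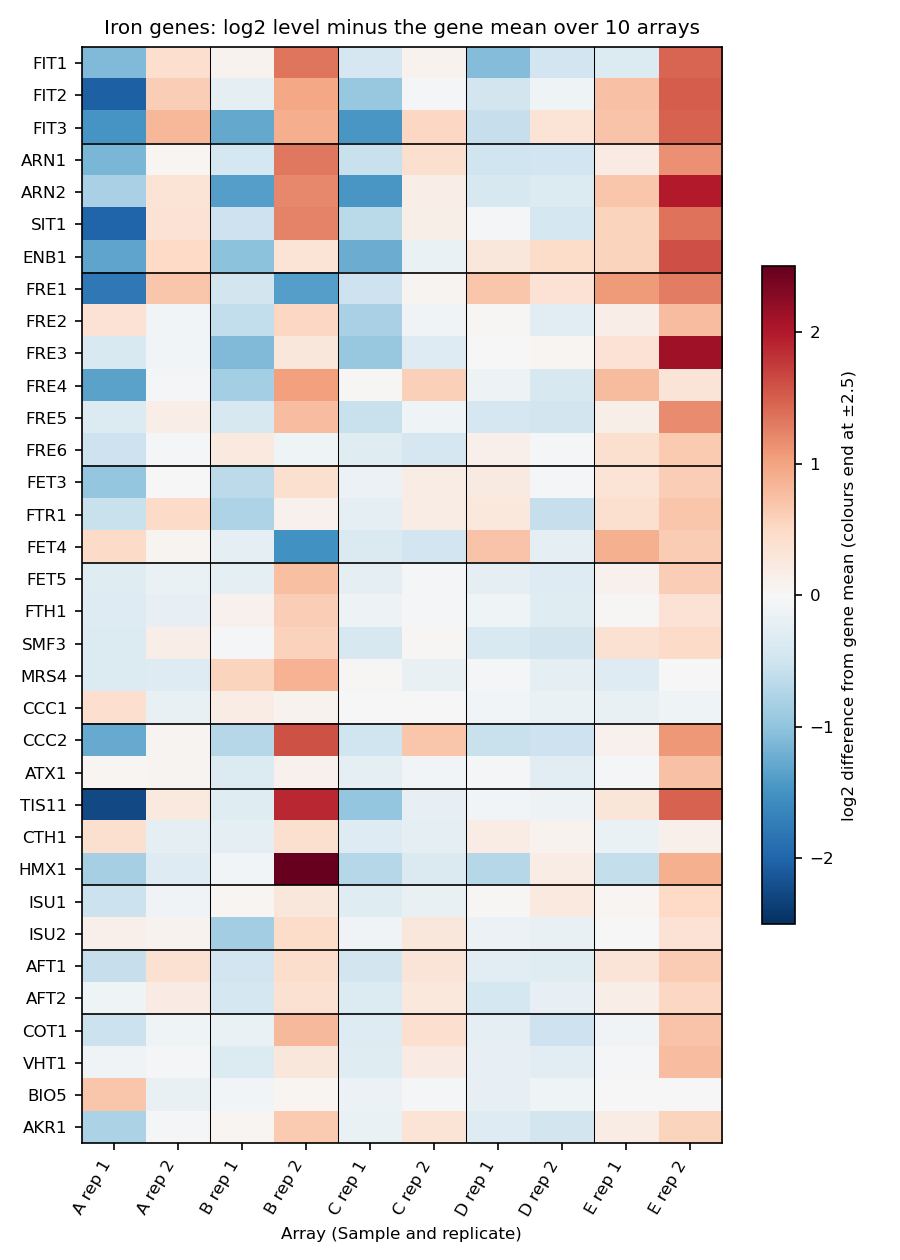
Level of the 34 iron genes (rows, in order of function: cell wall proteins, siderophore transporters, reductases, cell surface transport, vacuole and mitochondria, copper delivery, mRNA decay and heme breakdown, iron-sulfur scaffolds, activators, others) on the 10 arrays (columns), as the log2 difference from each gene's own mean over the arrays. Sample A replicate 1 holds the lowest value of 19 genes and Sample E replicate 2 the highest value of 18, against 10.8% and 24.1% of all genes.

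The 2 normal growth arrays differed for iron genes more than for most genes. Sample A replicate 1 held the lowest value of all 10 arrays for 19 of the 34 iron genes, against 10.8% of all genes. Sample A replicate 2 was above replicate 1 for 28 of the 34, where 35.8% of all genes were, and by more than 1 on the log2 scale for 12 of the 34, where 1.76% of all genes were. The median difference was 0.51 for the iron genes and −0.12 for all genes. With each array centred on its median the first 2 counts were 22 (17.3% of all genes) and 29 (50.9%), so both counts still stood above the share of all genes with the array-wide level removed.

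FIT2, a mannoprotein that retains siderophore iron in the cell wall, differed by 2.65 between the normal growth arrays, the largest such difference of the 5449 genes in this direction. TIS11 was the third in that order (2.49), the ferric reductase gene FRE1 the fourth (2.49), and SIT1, a transporter for ferrioxamine-type siderophores, the fifth (2.38). FIT3 was the eighth (2.29). The 50 largest differences held 8 iron genes and the 100 largest held 13, which also included the enterobactin transporter gene ENB1 (1.81), FIT1 (1.53), the copper-transporting ATPase gene CCC2 (1.33) and the plasma membrane pair FTR1 (1.04) and FET3 (0.96).

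The remaining 6 of the 34 were lower on replicate 2. CCC1, which moves iron into the vacuole for storage, read 11.52 on Sample A replicate 1 and 10.91 on replicate 2, its highest and lowest values of the 10 arrays. CTH1, the paralogue of TIS11, was 0.62 lower on replicate 2. BIO5, a transporter for a biotin precursor, was 0.88 lower on replicate 2 and read 7.04 on replicate 1 against 6.13 to 6.38 on the other 9 arrays. FET4, the low-affinity transporter for iron and other metals, was 0.41 lower on replicate 2, and the reductase gene FRE2 0.43 lower. ISU2, a scaffold for iron-sulfur cluster assembly, differed by −0.04.

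**Figure D2:**
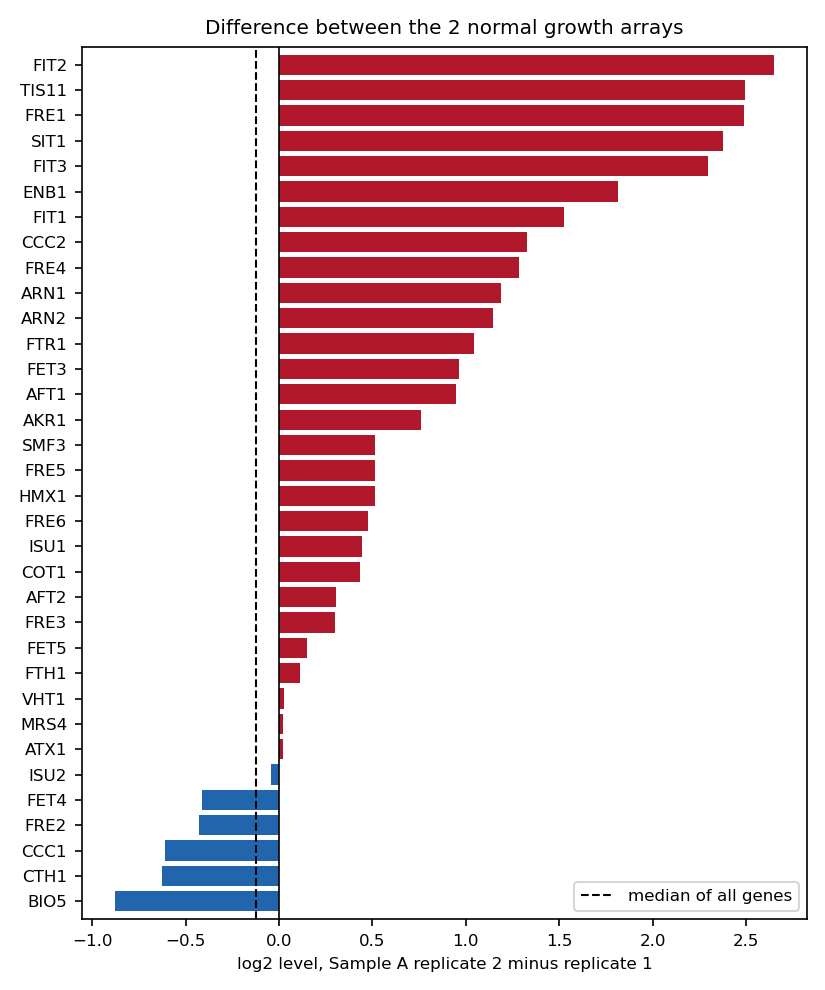
Difference in log2 level between the 2 normal growth arrays, Sample A replicate 2 minus replicate 1, for each of the 34 iron genes (bars), with the median of all 5449 genes as a dashed line at −0.12. Bars to the right of 0 (28 genes) are higher on replicate 2, led by FIT2 at 2.65, and BIO5 ends the list at −0.88.

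Some genes of other metal lists, which were chosen with earlier results of these data known, also separated these arrays. Of all genes, 35.8% were higher on replicate 2 and 1.76% by more than 1, with a median of −0.12. ZRT1, the high-affinity zinc transporter, read 12.95 on Sample A replicate 1 and 10.45 on replicate 2, and none of 7 zinc genes was higher on replicate 2. HEM13, an enzyme of heme synthesis that uses oxygen, was 1.83 lower on replicate 2, and 1 of 8 heme synthesis genes was higher. The high-affinity copper transporter gene CTR1 was 2.33 higher on replicate 2, among 10 copper genes of which 5 were higher and whose median was 0.05. ACO1, the iron-sulfur enzyme aconitase, was 2.10 higher, whereas only 4 of 26 genes for iron-using enzymes were higher, with a median of −0.30 and the peroxisomal catalase gene CTA1 at −1.34. Of 7 further genes tied to Aft1 or Aft2, 7 were higher on replicate 2, 4 of them by more than 1, with a median of 1.10. LSO1 was below the background level on both Sample A arrays and FRE8 on replicate 1, and neither is among these 4. Of 25 genes for iron-sulfur cluster assembly and iron sensing, 10 were higher on replicate 2 and none by more than 1. In signs of RNA quality, ACT1 had a 3′ over 5′ excess of 0.32 on replicate 1 and 0.29 on replicate 2. For 18S ribosomal RNA the 3′ probes read 12.66 on replicate 1, the highest of the 10 arrays, and 11.49 on replicate 2. Whether these values had a part in those of the iron genes was not tested.

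A difference between replicates was seen in other samples as well. In Sample B, replicate 2 was above replicate 1 for 30 of 34 iron genes (72.8% of all genes), and by more than 1 for 17 (28.6%). In Sample C it was above for 31 (79.6% of all genes), and by more than 1 for FIT3, ARN2, ENB1 and CCC2, 4 genes (0.826%). In Sample D it was above for 12 (57.3% of all genes) and by more than 1 for 0 (0.844%). In Sample E it was above for 32, which is near the share of all genes (91.7%), and by more than 1 for 7 (1.91%). The arrays were not centred for these counts, so array-wide shifts enter them. In Sample D no iron gene differed by more than 1 in either direction, with differences from −0.93 to 0.92.

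Iron genes were next compared between the first hour in KCl and normal growth. MRS4, a mitochondrial iron importer, was the 1 iron gene of 34 that passed the test in Sample B against Sample A, where limma called 4.4% of all genes (3.51% higher, 0.899% lower). MRS4 read 10.04 and 10.35 in Sample B, and 9.15 and 9.17 in Sample A. Its values in Samples C, D and E lay between 9.16 and 9.51, so that both Sample B arrays stood above the other 8. The difference was 1.03 ± 0.24 (SE, n = 2 arrays per sample), a 2.04-fold rise (limma adjusted p = 0.0499). This call lies at the threshold: the adjusted p was 0.0279 with the replicate number as a block, 0.0511 after quantile normalization and 0.479 with the 2 samples alone, and it lay above the threshold without any 1 array except Sample B replicate 1.

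HMX1, heme oxygenase, read 7.71 and 10.27 in Sample B, and 6.94 and 7.45 in Sample A. Sample B replicate 2 held its highest value by far, and the 2 samples did not overlap. The difference was 1.79 ± 0.78 (SE), with adjusted p = 0.247 in the limma fit and 0.0488 with the replicate block, under which 2 of 34 iron genes were called, both higher (10.7% of all genes, 8.11% higher and 2.59% lower). TIS11 read 9.31 and 11.50 in Sample B, and 7.35 and 9.84 in Sample A, so that the samples overlapped. The difference was 1.81 ± 0.89, with 1.97 in replicate 1 and 1.66 in replicate 2 (adjusted p = 0.3, and 0.0702 with the block).

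The member with the most negative difference between Samples B and A was FET4. It read 10.47 and 9.17 in Sample B, and 11.18 and 10.76 in Sample A, without overlap. Its difference of −1.15 ± 0.45 did not pass (limma adjusted p = 0.198, and 0.0508 with the block). FET4 was the 1 iron gene for which both Sample B arrays lay below both Sample A arrays (15.9% of all genes did so), whereas for 5 iron genes both lay above (23.1% of all genes). With each array centred on its median the counts were 4 below (22.6% of all genes) and 6 above (21.5%), and after quantile normalization 6 below (28.7%) and 5 above (20.6%).

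Among genes of iron uptake at the cell surface, FIT2, SIT1 and FRE1 differed more between the replicates of Sample B than between the means of Samples B and A. FIT2 read 12.22 and 13.42 in Sample B, and 10.43 and 13.08 in Sample A. SIT1 read 10.94 and 12.70 in Sample B, and 9.46 and 11.84 in Sample A. FRE1 went the other way in replicate 2, with 11.12 and 10.20 in Sample B and 9.79 and 12.28 in Sample A. The differences were 1.07 ± 0.78 for FIT2, 1.17 ± 0.79 for SIT1 and −0.38 ± 0.69 for FRE1, and none passed (limma adjusted p = 0.508, 0.463 and 0.816). FTR1, at −0.30, and FET3, which read 12.18 and 13.23 in Sample B against 11.86 and 12.82 in Sample A, did not pass either.

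The 34 iron genes had a median difference of 0.31 between Samples B and A, where all genes had 0.08. The median was 0.69 against Sample A replicate 1 alone and 0.06 against Sample A replicate 2 alone. With Sample B replicate 1 left out, replicate 2 alone stood for that sample. The differences were then 3.08 for HMX1, 2.91 for TIS11 and −1.80 for FET4. With Sample B replicate 2 left out instead, they were 0.51 for HMX1 and 0.72 for TIS11. Over all arrays, 4 iron genes had an unadjusted p under 0.05 (20.0% of all genes), and 11 with the block (26.9%). Signs of RNA quality also stood apart in Sample B. The 3′ probes for 18S ribosomal RNA gave 10.09 and 10.31 there and 11.21 to 12.66 on the other arrays, and the ACT1 3′ over 5′ excess was 0.18 and 0.56 there and 0.25 to 0.38 elsewhere. Their part in these results was not tested.

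**Figure D3:**
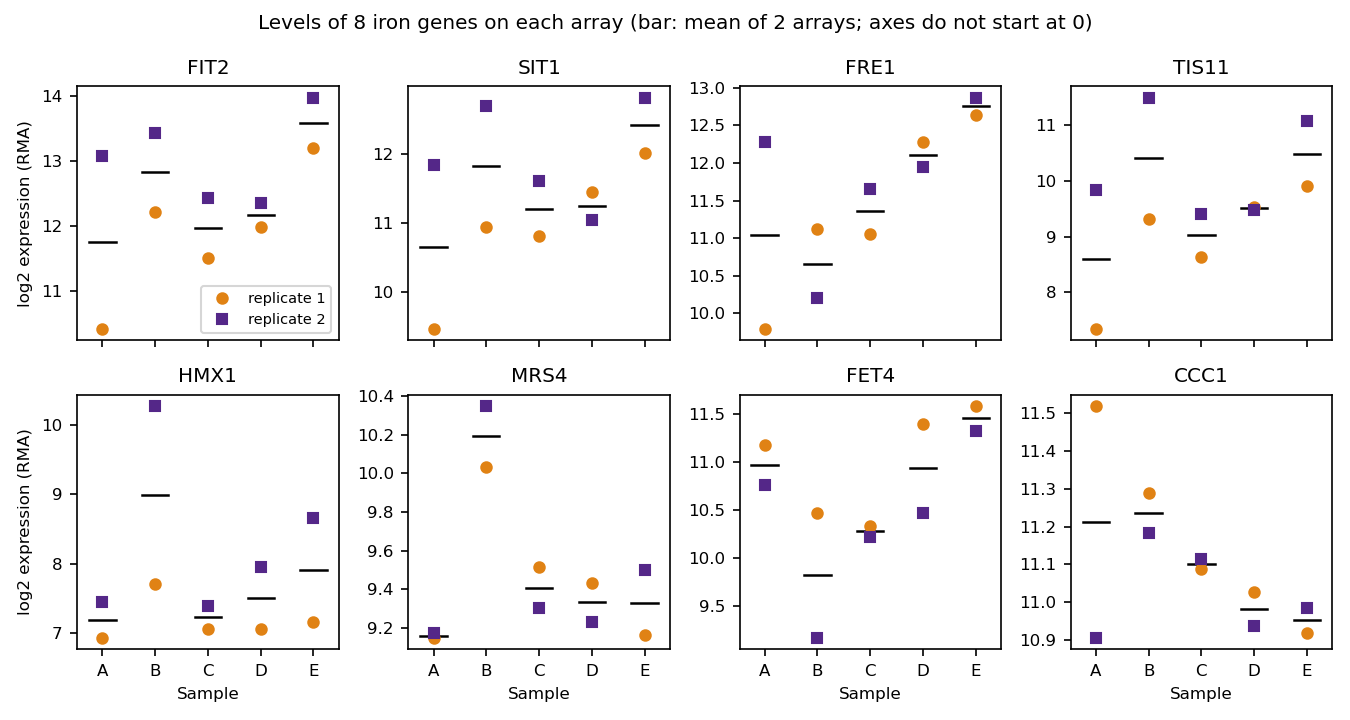
Log2 expression of 8 iron genes in Samples A to E, with replicate 1 (circles), replicate 2 (squares) and the mean of both (bars). The replicates of FIT2, SIT1, FRE1 and TIS11 lie 2.38 to 2.65 apart in Sample A, MRS4 is above its other values in Sample B, and CCC1 spans its whole range of 0.61 within Sample A.

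In cells adapted to KCl, no iron gene differed detectably from normal growth. Limma called 0 of 34 in Sample C against Sample A (0.0184% of all genes), and 0 with the replicate block (0.771%). Unadjusted p-values under 0.05 numbered 0 as well, both without the block (4.68% of all genes) and with it (8.04%). The median difference was 0.03 for the iron genes and −0.01 for all genes. FRE4, a ferric reductase with a role in siderophore iron, averaged 9.29 ± 0.41 in Sample C and 8.29 ± 0.91 in Sample A (SD, n = 2 each). Its Sample C arrays lay above those of Sample A, by a mean of 1.005 ± 0.61 (SE, adjusted p = 1). Both Sample C arrays lay above both Sample A arrays for 3 iron genes (18.1% of all genes) and below for 4 (17.8%), or for 1 (21.4%) and 5 (23.9%) with each array centred on its median. FET4 read 10.33 and 10.22 in Sample C, and 11.18 and 10.76 in Sample A, again without overlap, with a difference of −0.69 ± 0.45 (adjusted p = 1, and 0.639 with the block). Both KCl samples thus held FET4 values below those of normal growth.

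The sign of the comparison depended on which normal growth array was used. Against Sample A replicate 1, 26 of 34 iron genes had a higher mean in Sample C (43.1% of all genes), 8 of them by more than 1 (4.37%), with a median difference of 0.27. Against Sample A replicate 2, 12 were higher (57.5% of all genes), none by more than 1, and the median was −0.24. ARN2, a siderophore transporter of the same family as SIT1, read 8.50 and 10.11 in Sample C, and 9.14 and 10.28 in Sample A. FIT3 read 10.82 and 12.79 in Sample C, and 10.80 and 13.09 in Sample A, so both showed a lower replicate 1 and a higher replicate 2 in either sample.

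One hour after KCl had been removed, the iron genes did not differ detectably from normal growth either. Limma called 0 of 34 in Sample D against Sample A (0% of all genes), and 0 with the replicate block (0.239%). Unadjusted p-values under 0.05 numbered 0 without the block (4.02% of all genes) and 0 with it (6.02%). Both Sample D arrays lay above both Sample A arrays for 3 iron genes (9.97% of all genes) and below for 6 (31.8%), or for 3 (19.7%) and 1 (18.1%) with each array centred on its median. The medians were 0.04 for the iron genes and −0.12 for all genes. FRE1 read 12.27 and 11.95 in Sample D, and 9.79 and 12.28 in Sample A. The Sample D arrays were close to each other and the Sample A arrays lay on either side of them, with a difference of 1.07 ± 0.69 (limma adjusted p = 1) that turned to −0.17 without Sample A replicate 1. TIS11 read 9.54 and 9.49 in Sample D, and 7.35 and 9.84 in Sample A, with a difference of 0.92 ± 0.89 (adjusted p = 1) that turned to −0.33 without Sample A replicate 1. Against Sample A replicate 1, 23 of 34 iron genes stood higher in Sample D (28.9% of all genes), with a median of 0.36, and against replicate 2, 11 did (40.9% of all genes), with a median of −0.22.

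In recovered cells many iron uptake genes read above their normal growth values, though none passed the test. Sample E replicate 2 held the highest value of 18 iron genes (24.1% of all genes), or of 13 with each array centred on its median (2.7%). Both Sample E arrays lay above both Sample A arrays for 20 of 34 iron genes, where 21.8% of all genes did, and below for 0 (0.936%). With each array centred on its median the counts were 14 above (10.1% of all genes) and 2 below (15.5%). The median difference was 0.67 for the iron genes and 0.13 for all genes. Limma called 0 of 34 iron genes (0% of all genes), with and without the replicate block. Of the 34, 6 had an unadjusted p under 0.05 (0.863% of all genes), and 17 had one with the block (2.99%).

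TIS11 read 9.91 and 11.08 in Sample E, and 7.35 and 9.84 in Sample A. The difference was 1.90 ± 0.89 (SE), with 2.56 in replicate 1 and 1.24 in replicate 2 (limma adjusted p = 1, and 0.999 with the block), and it was 3.15 against Sample A replicate 1 and 0.65 against replicate 2. FIT2 read 13.20 and 13.97 in Sample E, and 10.43 and 13.08 in Sample A. Its difference of 1.83 ± 0.78 (adjusted p = 1) was 3.16 against Sample A replicate 1 and 0.51 against replicate 2. In both genes each Sample E array exceeded the higher Sample A array, and in both the distance to Sample A replicate 1 was the larger.

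The 4 siderophore transporter genes stood higher in Sample E than in Sample A, with a median difference of 1.54 (0.13 for all genes). SIT1 read 12.02 and 12.82 in Sample E, and 9.46 and 11.84 in Sample A. ENB1 averaged 11.6 ± 0.74 in Sample E and 10.1 ± 1.28 in Sample A (SD, n = 2 each). ARN2 read 10.64 and 11.93 in Sample E, and 9.14 and 10.28 in Sample A, a difference of 1.57 that was similar in the replicates (1.49 and 1.64). ARN1 averaged 10.6 ± 0.66 in Sample E and 9.41 ± 0.84 in Sample A (SD, n = 2 each). In each of the 4 genes the Sample E arrays lay above the Sample A arrays, as in 21.8% of all genes. None of the 4 passed the test.

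The 5 ferric reductase genes above background had positive differences in Sample E against Sample A, as 78.3% of all genes did. FRE1 read 12.64 and 12.87 in Sample E, and 9.79 and 12.28 in Sample A. FRE3, a reductase for siderophore iron, read 8.51 and 10.25 in Sample E, and 7.76 and 8.06 in Sample A, and Sample E replicate 2 held its highest value of the 10 arrays. FRE6, the vacuolar reductase, read 10.45 and 10.71 in Sample E, and 9.54 and 10.02 in Sample A. FRE2 overlapped, with 7.18 and 7.79 in Sample E and 7.37 and 6.94 in Sample A. The high-affinity uptake pair differed by 0.96 and 0.59, with FET3 at 13.17 and 13.43 in Sample E against 11.86 and 12.82 in Sample A, and FTR1 at 12.29 and 12.58 in Sample E against 11.33 and 12.37 in Sample A. Members near or below 0 were CCC1 (−0.26), BIO5 (−0.26), CTH1 (−0.10) and ISU2 (0.07).

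Set against each normal growth array, the iron genes in Sample E had a median difference of 1.02 from replicate 1 and of 0.45 from replicate 2, where all genes had 0.07 and 0.20. All 34 had a higher mean in Sample E than on Sample A replicate 2, but so did 91.6% of all genes, and with each array centred on its median 25 of 34 did (43.3% of all genes). The largest of these differences from replicate 2 was 1.32, for FRE3. A fit of Samples E and A alone called 10 iron genes (0.606% of all genes), namely ARN1, ARN2, ENB1, FIT2, FIT3, FRE1, FRE3, FRE4, SIT1 and TIS11. It gave every gene the same SE of 0.33, although the SD of FIT2 in Sample A was 1.87.

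**Figure D4:**
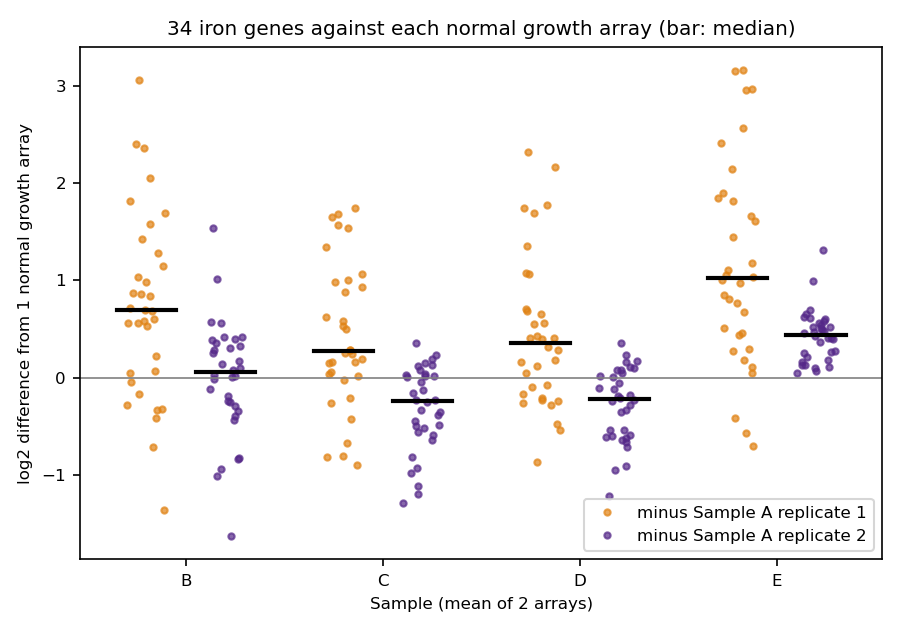
Log2 difference of the mean of Samples B, C, D and E from a single normal growth array for the 34 iron genes (points), with Sample A replicate 1 on the left and replicate 2 on the right of each pair and bars at the medians. The medians against replicate 1 are 0.69, 0.27, 0.36 and 1.02, and those against replicate 2 are 0.06, −0.24, −0.22 and 0.45.

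The differences between neighbouring samples do not use the normal growth levels, although the spread of all 10 arrays enters their SEs and tests. From early to late recovery, both Sample E arrays lay above both Sample D arrays for 28 of 34 iron genes, where 47.9% of all genes did, and below for 0 (3.08%). With each array centred on its median the counts were 21 above (18.6% of all genes) and 4 below (22.4%). The median difference was 0.67 for the iron genes and 0.25 for all genes. Limma called 0 of 34 (0% of all genes), and with the block also 0 (0.0184%). An unadjusted p under 0.05 was found for 2 iron genes (3.91% of all genes), or 13 with the block (8.28%).

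ARN2 read 10.64 and 11.93 in Sample E, and 9.55 and 9.59 in Sample D, with a difference of 1.71 ± 0.86 (limma adjusted p = 0.853, and 0.597 with the block). FIT2 read 13.20 and 13.97 in Sample E, and 11.99 and 12.35 in Sample D, with a difference of 1.42 ± 0.78 (adjusted p = 0.853). FIT1 stood 1.35, FIT3 1.21, SIT1 1.18, ARN1 1.16 and CCC2 1.14 higher in Sample E, each above Sample D on both arrays. A fit of Samples E and D alone called 10 iron genes (2.15% of all genes), all higher in Sample E. They were ARN1, ARN2, CCC2, FIT1, FIT2, FIT3, FRE3, SIT1, TIS11 and FRE5, the last of which was not above background. That fit gave them SEs of only 0.27 to 0.28, although the SD of FIT1 in Sample E was 1.27. Between Samples E and D the iron genes differed less in replicate 1 (median 0.30) than in replicate 2 (median 0.96). Sample E replicate 2 has a high array-wide level.

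From the first hour in KCl to adapted growth, the iron genes stood lower by a median of 0.35 in Sample C than in Sample B (all genes, 0.10 lower). Limma called 0 of 34 (0% of all genes), and with an unadjusted p under 0.05 there was 1 iron gene (10.3% of all genes), or 4 with the block (15.7%). Both Sample C arrays lay below both Sample B arrays for 6 (19.1% of all genes) and above for 0 (12.4%). Median centring of each array gave 9 below (18.8% of all genes) and 3 above (18%). Quantile normalization gave 7 below (19.2%) and 1 above (22.6%). HMX1 read 7.06 and 7.40 in Sample C, and 7.71 and 10.27 in Sample B, with a difference of −1.76 ± 0.78 (adjusted p = 0.491, and 0.166 with the block). TIS11 read 8.64 and 9.40 in Sample C, and 9.31 and 11.50 in Sample B, with a difference of −1.38 ± 0.89 (adjusted p = 0.672). With Sample B replicate 1 left out, so that 1 array stood for Sample B, the differences were −3.04 for HMX1 and −2.475 for TIS11. With Sample B replicate 2 left out instead, they were −0.48 and −0.29.

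When KCl was removed, no iron gene passed between Samples D and C (limma called 0% of all genes), and the median difference was −0.07 (all genes, −0.09). Both Sample D arrays lay above both Sample C arrays for 8 iron genes (13.7% of all genes) and below for 7 (29.5%), or for 9 (23.9%) and 5 (24.0%) with each array centred on its median. ENB1 read 10.80 and 10.97 in Sample D, and 9.27 and 10.34 in Sample C, with a difference of 1.08 ± 0.68 (adjusted p = 1, and 0.426 with the block). FRE1 read 12.27 and 11.95 in Sample D, and 11.06 and 11.66 in Sample C, with a difference of 0.75 ± 0.69 (adjusted p = 1). FET4 also stood 0.66 higher in Sample D, whereas FIT1 and CCC2 stood 0.62 and 0.64 lower.

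Over all 5 samples, the moderated F test called 0 of 34 iron genes (0.532% of all genes) and 0 with the replicate block (3.27%). MRS4 had the lowest adjusted p without the block (0.265) and FET4 the lowest with it (0.0872).

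Of the activator genes, AFT1 ranged over 1.21 across the 10 arrays and AFT2 over 0.95. AFT1 read 8.23 and 9.18 in Sample A, 8.33 and 9.24 in Sample B, 8.34 and 9.13 in Sample C, 8.52 and 8.51 in Sample D, and 9.14 and 9.44 in Sample E. Replicate 2 was thus 0.79 to 0.95 above replicate 1 in Samples A, B and C, but not in Sample D. AFT2 stayed between 7.33 and 8.28, with replicate 2 above replicate 1 in every sample.

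Genes that lie near each other did not all differ alike. According to the RefSeq gene table, FIT2, FIT3 and FRE5 are direct neighbours on chromosome XV, and FRE3 is separated from FIT2 by 1 other gene. Between the normal growth arrays FIT2 differed by 2.65 and FIT3 by 2.29, whereas FRE3 differed by 0.30. FIT1 lies on chromosome IV beside STL1, the gene for a glycerol symporter. FIT1 read 8.67 and 9.92 in Sample B, 7.49 and 8.11 in Sample D, and 7.49 and 9.01 in Sample A.

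Of 8 pairs of related genes, 4 varied alike over the 10 arrays, which also share array-wide shifts. Pearson's r across arrays was 0.91 for AFT1 and AFT2, 0.89 for FIT2 and FIT3, 0.87 for ARN1 and ARN2, and 0.82 for FRE2 and FRE3. It was 0.69 for FET3 and FET5, 0.36 for FTR1 and FTH1, 0.13 for TIS11 and CTH1, and 0.11 for ISU1 and ISU2. TIS11 ranged over 4.15 on the log2 scale across the 10 arrays and CTH1 over 0.72. FET3 had its lowest value (11.86) on Sample A replicate 1 and its highest (13.43) on Sample E replicate 2, while FET5, the vacuolar oxidase, ranged over 1.07 with its highest value (11.50) on Sample B replicate 2. ISU1 read 12.40 and 12.63 in Sample B against 11.82 and 12.26 in Sample A, and ISU2 read 10.27 and 11.59 in Sample B against 11.27 and 11.22 in Sample A. Paralogues can share part of their signal on an array, since probes may bind both transcripts.

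The remaining members concern vacuolar and other transport. FTH1, which exports iron from the vacuole with Fet5, read 11.12 and 11.64 in Sample B and 10.69 and 10.80 in Sample A. SMF3, another vacuolar iron exporter, stayed between 10.99 and 12.02 and ATX1, the copper chaperone, between 11.21 and 12.27. COT1, which stores zinc and cobalt in the vacuole, ranged from 10.57 to 11.91, the biotin transporter gene VHT1 from 9.74 to 10.85, and AKR1, a palmitoyltransferase gene, from 10.20 to 11.65. Sample A replicate 1 held the lowest value of COT1 and of AKR1, and Sample B replicate 1 that of ATX1 and of VHT1.

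Of 7 further genes tied to Aft1 or Aft2, FRE8 rose in Sample B against Sample A (1.42 ± 0.25, limma adjusted p = 0.0209), none fell and 6 did not pass (4.4% of all genes were called), with a median of 2.08. FRE8 read 6.76 and 6.74 in Sample B, and 5.13 and 5.54 in Sample A, where replicate 1 was below the background level of 5.68, so that its difference is uncertain in size. With the replicate block 4 rose (10.7% of all genes were called), FRE8, BNA2, ECM4 and APE1 (2.47 for ECM4, adjusted p = 0.0611 without and 0.00699 with the block). BNA2 acts in NAD synthesis, ECM4 is a glutathione transferase and APE1 a vacuolar aminopeptidase. LSO1, a small protein made when iron is short, read 4.30 and 9.82 in Sample B, and 4.15 and 5.08 in Sample A, so that it exceeded the background level there on Sample B replicate 2 alone. None of the 7 passed in Samples C, D or E against Sample A, with medians of 0.55, 0.35 and 0.75.

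Of 26 genes for iron-using enzymes and cytochromes, CTT1, the cytosolic catalase and a general stress gene, rose in Sample B (4.62 ± 0.80, limma adjusted p = 0.0203), none fell, and the median was −0.07. SDH1 and CYT1 of the respiratory chain also rose with the block (adjusted p = 0.0295 and 0.0386), which makes 3 of 26 against 10.7% of all genes. Of 8 heme synthesis genes none passed without the block and HEM14 did with it (0.85 higher in Sample B, adjusted p = 0.0487). Of 10 copper genes measured of 11, none passed without the block. FRE7, a reductase gene of the copper regulon, read 5.78 and 4.44 in Sample B and 6.69 and 6.96 in Sample A, and fell with the block (adjusted p = 0.0339, and 0.0553 without). Its Sample B replicate 2 value lies below the background level of 5.11, so no size is given. Of 25 genes for iron-sulfur cluster assembly and iron sensing and of 7 zinc genes, none passed in any of the 7 comparisons, with or without the block. In Samples C, D and E none of these lists held a gene that passed, and their medians against Sample A lay between −0.30 and 0.24.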

How the data were processed

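RNA from 10 arrays (5 samples, 2 arrays each) was analysed. The deposited log2 values, 1 per probe set, were made by the authors with RMA in Affymetrix Expression Console, which corrects background, normalises arrays and summarises probes. No source used here gives its version or says whether all arrays were normalised together. Of 10928 probe sets, 7244 carried 1 gene symbol, 1 several and 3683 none. By gene identifier 5498 matched a yeast gene in the RefSeq table, giving 5449 genes (for 47 genes with several probe sets, the one with the highest mean), and the other 1746 named probe sets served as background. The test was limma 3.58.1 under R 4.3.3, with 1 coefficient per sample over all 10 arrays and Benjamini-Hochberg adjustment over the 5449 genes (adjusted p under 0.05, two-sided). All samples share 1 spread per gene, so SEs for the less alike Sample B arrays can be too small. The precision is limited by 2 arrays per sample.

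The members and lists were chosen with earlier results of these data known. Per the labels, replicates were different culture batches, so the replicate number pairs arrays. The fit used leaves this pairing out of its SEs and tests, and the replicate block includes it. Deviations from sample means correlated between same-numbered arrays at 0.22 to 0.52 (median 0.43, 10 pairs of samples). Tested differences are named for members past the threshold with or without the replicate block and for the 2 members farthest from 0 in each comparison. Further tested differences were given, such as those of FET4, FIT2, SIT1 and FRE1 in Sample B against Sample A. These and other values were chosen to show each member's levels. The alternatives were the replicate block, quantile normalisation, median centring, the 2 samples alone, a filter on dim genes, array weights, means of probe sets, all probe sets together and leaving out each array. No sequences are shown because none were among the tables used here.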

Additional observations from a re-analysis of the deposited data

How the results depend on the processing

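Values per alternative follow for the results that moved. The count of iron genes called in Sample B against Sample A, 1 in the fit used, was 2 with the replicate block and 0 after quantile normalisation, with the 2 samples alone and with array weights. It ranged from 0 to 12 when 1 array was left out, and only the fit without Sample B replicate 1 gave any (12). The fits of 2 samples alone called 10 iron genes in Sample E against A (0.606% of all genes) and 10 against D (2.15%). The fit used called 0 in both. When 1 array was left out, the count was 0 to 5 for Sample C against Sample B and 0 to 2 for the F test, in each case above 0 without Sample B replicate 1 alone, and 0 in the other comparisons. Without Sample B replicate 1, 1 array stood for Sample B, and far more of all genes passed as well. The counts from that fit therefore do not set the iron genes apart from all genes. The median difference of the iron genes in Sample B against Sample A (0.31) was 0.20 after quantile normalisation and 0.16 after median centring. In Sample E against Sample A (0.67) it was 0.49 and 0.52. When 1 array was left out, these medians ranged from −0.14 to 0.82 and from 0.44 to 1.02. The other medians ranged from −0.24 to 0.27 (Sample C against A), −0.22 to 0.36 (D against A), −0.74 to 0.18 (C against B), −0.25 to 0.10 (D against C) and 0.38 to 0.90 (E against D), so that the sign of those of C against A, D against A, C against B and D against C depended on single arrays. The count of iron genes lowest on Sample A replicate 1 was 19 to 20 without any 1 of the other arrays. FRE1 and TIS11 in Sample D against Sample A ranged from −0.17 to 2.32 and from −0.33 to 2.17, turning below 0 without Sample A replicate 1. HMX1 and TIS11 in Sample B against Sample A ranged from 0.51 to 3.08 and from 0.57 to 3.06 when 1 array was left out. The block changed no other call on an iron gene. The cause of these dependences was not tested.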
